A study of Mus musculus with 6 samples.

Results

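The genes described here carry proteins into the endoplasmic reticulum (ER) and on to and from the Golgi. They are 41 genes named by function, for the signal recognition particle, the Sec61 translocon and its partners, signal peptidase, the COPII and COPI vesicle coats, cargo and retrieval receptors, and a fusion and a tethering factor. Each gene was represented by the brightest probe set whose annotation gave that symbol alone, and 40 of the 41 had such a probe set among the 12859 genes tested. Sec61g, the small gamma subunit of the translocon, had none and is not analysed here. Expression was measured on Affymetrix mouse arrays in skull-roof bone (calvaria, parietal bones) of 10-day-old mice of 2 genotypes. The control mice were wild type, and their littermates, 13del-tg, carried a transgene of Col10a1, the collagen of hypertrophic cartilage, with the 13del mutation. The labels describe the 13del-tg mice as having bone overgrowth. The promoter of the transgene, the number of lines and whether an array held 1 animal or a pool are not given in the sources used here.

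Secreted proteins such as collagen start their route at the signal recognition particle (SRP), which binds a signal sequence as it leaves the ribosome and docks it at the ER. The Sec61 channel lets the chain through, helped by the translocon-associated protein (TRAP) complex, and signal peptidase cuts the signal off. COPII-coated vesicles then take folded cargo from the ER, and COPI-coated vesicles bring escaped ER proteins and receptors back from the Golgi. Bone-forming osteoblasts export large amounts of type I collagen by this route, and in many cells the route's genes are raised together with ER chaperones when the ER is loaded, through XBP1, ATF6 and the CREB3L factors.

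The labels list 3 biological replicates per genotype. The columns deposited for control 1 and 13del-tg 1 held the same value at each of the 45101 probe sets. This array, the shared array below, has no single genotype, so its values stand apart and the comparison set 13del-tg 2 and 3 against controls 2 and 3, with 2 arrays a group limiting the precision of every value. Signals below are the deposited intensities, and differences are 13del-tg minus control in log2(signal + 16). Col10a1, the check of the transgene, had signals of 149.8 and 158.2 in the control arrays and 15688.7 and 11584.4 in the 13del-tg arrays. The shared array had 152.2 and lay at the control level against its 13del-tg label. The osteoblast markers Col1a1, Col1a2, Ibsp, Alpl, Ifitm5 and Sp7 were all above the level of the filter on dim probe sets on every array; Bglap and Spp1 had no probe set used here. Over all genes 2 were higher and 6 lower at an adjusted p under 0.05 by limma, 1 and 1 after quantile normalization, and 3 and 27 with arrays centred on their medians. That centring added 0.18 to the difference of every gene. It moved the median of all genes from -0.074 to 0.11 and the share of positive differences from 41.2% to 62.2%.

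Most ER entry and transport genes gave somewhat larger signals on both 13del-tg arrays, by amounts that did not pass the test for any of them. Of the 40 members 34 had a positive difference, and the median was 0.21, with a range from -0.16 (Sec23b) to 0.47 (Spcs1) and quartiles at 0.093 and 0.36. Over all genes the median was -0.074 and 41.2% of differences were positive. In the brightest 10% of genes, where 27 of the members lay, 72.6% were positive. By limma 0 of the 40 members had an adjusted p under 0.05, against 0.0622% of all genes, and 0 had an unadjusted p under 0.05, against 6.80%. The adjusted p of the members ran from 0.715 to 0.995, and their median SE was 0.18, close to the median difference itself. An exact two-sided permutation test cannot go below p = 0.333 with 2 arrays against 2.

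Both 13del-tg arrays lay above both controls for 24 of the 40 members, against 13.4% of all genes, and below both controls for 3, against 26.3%. The 3 were Sec23b, Sec24c and Copz1, and all 3 differences were positive once arrays were centred on their medians (0.024, 0.029 and 0.11). Since centring added 0.18 to every gene, any difference above -0.18 had to turn positive, as did those of all members. The 13 others overlapped between the groups. Counted with the shared array as a control the 24 became 20, and counted with it as 13del-tg they became 4. The share of all genes apart with that array added is not given here, so neither count can be read against the 13.4%. Leaving out 1 of the 4 compared arrays moved the difference of 34 of the 40 members by over 1.5 times. The 6 others were Ssr3, Arf4, Copb1, Kdelr1, Kdelr3 and Tmed2, and their lowest and highest values stayed between 0.22 and 0.53. Tmed2, also among the 24, was dim, with both control signals (59.1 and 52.9) under the filter signal of 61.9.

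**Figure D1:**
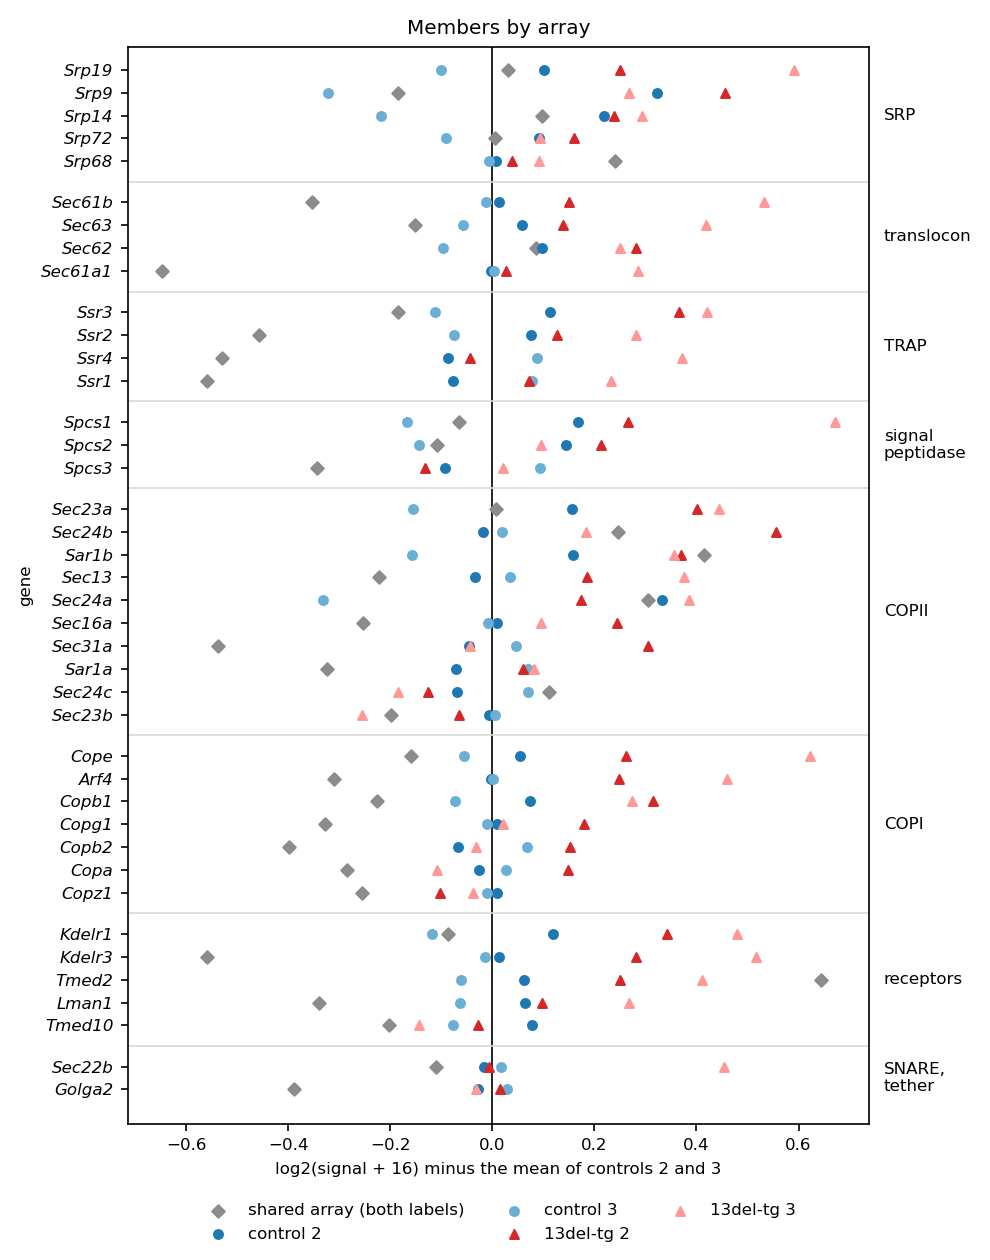
Signal of each of the 40 measured members on each of 5 arrays, as log2(signal + 16) minus the mean of controls 2 and 3 (x axis), grouped by role and ordered by the genotype difference (y axis). Triangles are 13del-tg, circles controls and diamonds the shared array; for 24 members both triangles lie to the right of both circles, and for 24 members the diamond lies to the left of all other points.

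These proportions have to be read beside signal strength, because differences of all genes grew with it. With genes in 10 equal groups by mean signal, the median difference went from -0.24 in the dimmest group to 0.13 in the brightest. Of the 40 members 27 were in the brightest 10%, with mean signals of about 3461 and above. Inside that group 25 of the 27 members had a positive difference, against 72.6% of all its genes. The members' median was 0.22, and 16 of the 27 had both 13del-tg arrays above both controls, against 32.8% of all genes of the group. Quantile normalization, which gives every array one distribution of signals, left medians from -0.082 to -0.0030 over the 10 groups of genes, with -0.0036 in the brightest. The median over all 40 members was then 0.13, with 29 positive and 11 negative, against -0.026 over all genes. After it 19 members had both 13del-tg arrays above both controls, against 15.0% of all genes, and in the brightest 10% of genes 12 of 27 did, against 14.3%. The 11 negative members were Ssr1, Ssr4, Spcs3, Sar1a, Sec23b, Sec24c, Copa, Copb2, Copz1, Tmed10 and Golga2.

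**Figure D2:**
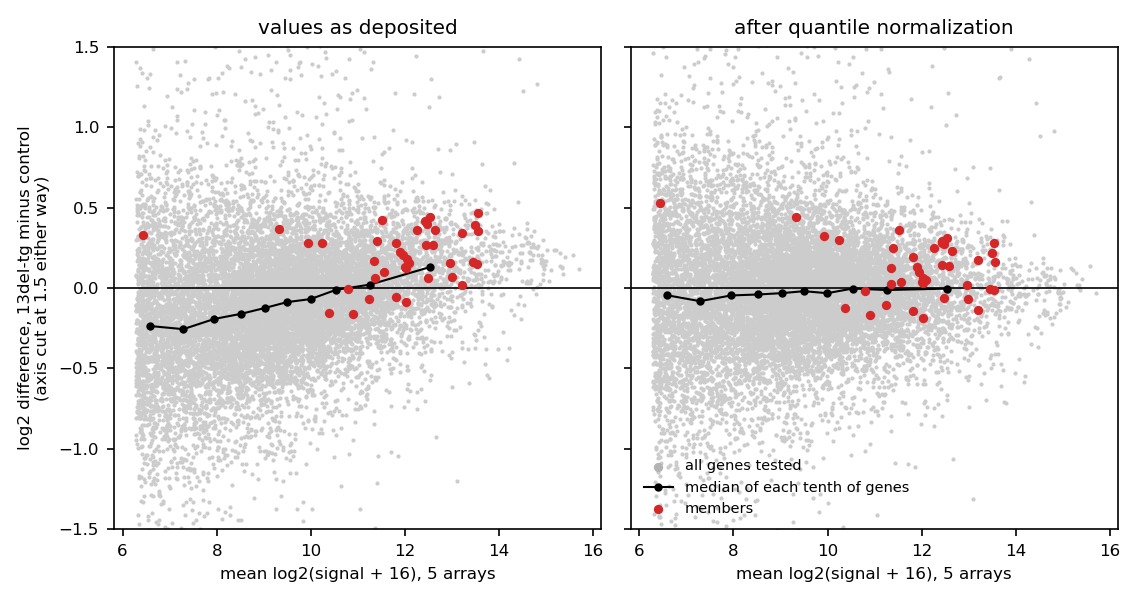
Genotype difference (13del-tg minus control, log2 scale, y axis) against mean signal (log2(signal + 16), x axis) for the 12859 genes tested (grey) and the 40 measured members (red), with the median of each of 10 equal groups by signal (black), before and after quantile normalization. The black line climbs from -0.24 to 0.13 in the deposited values and is near 0 after normalization, where 29 members are above 0 and 11 below.

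For ER entry 16 members were measured, of which 15 had a positive difference and 11 had both 13del-tg arrays above both controls (median 0.23). Of the 16, 14 lay in the brightest 10% of genes, where 72.6% were positive and 32.8% apart with 13del-tg above. Over all genes those shares were 41.2% and 13.4%. All 5 measured SRP genes had positive differences. Srp19, which helps SRP54 join the particle's RNA, gave signals of 5250.6 and 4565.3 in the controls, while 13del-tg 2 and 3 had 5825.1 and 7381 and the shared array 5001.8. The groups did not overlap, with a difference of 0.42 (SE 0.20), a 95% interval of -0.048 to 0.89 and a limma adjusted p of 0.715. Srp9 and Srp14, which form the Alu domain that slows translation, differed in how cleanly the arrays fell. For Srp14 the controls gave 6544.9 and 4825.3 and the 13del-tg arrays 6634.5 and 6892.9, a difference of 0.27 (SE 0.20), with control 3 the lowest array. Srp9 had 7411.4 and 4738.5 against 8137.6 and 7139.7, so control 2 lay above 13del-tg 3 and the groups overlapped (difference 0.36, SE 0.24). Both rested on control 3, since without it Srp9 had 0.040 and Srp14 0.047, and without control 2 they had 0.68 and 0.49. The large subunits Srp68 and Srp72 had small differences of 0.066 (SE 0.18) and 0.13 (SE 0.18), and for Srp68 the shared array, at 2925.6, lay above the other 4.

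The 4 measured translocon genes were higher on both 13del-tg arrays, with a median of 0.27. Sec61b, the beta subunit of the channel, gave 9068.7 and 8908.4 in the controls, 9977.5 and 13011.2 in 13del-tg and 7032.1 on the shared array. Its difference was 0.34 (SE 0.19) with a 95% interval of -0.11 to 0.80, and 13del-tg 3 was the highest array. Sec61a1, the pore-forming subunit, had nearly equal controls (8290.7 and 8326.6) and 8465.8 and 10132.2 in 13del-tg, a difference of 0.16 (SE 0.18), while the shared array had 5296.2. Of 6 probe sets above the filter that named Sec61a1, 3 came with positive and 3 with negative differences, from -0.35 to 0.17, so its direction depends on the probe set. Sec62 and Sec63, partners of the channel for post-translational entry and for docking the chaperone BiP, had 0.27 (SE 0.18) and 0.28 (SE 0.21). In Sec62 the arrays were close together, at 5429.3 and 4746.6 against 6171 and 6040.7. The next brightest Sec62 probe set overlapped, at 4491.6 and 3698.2 against 4096 and 4047.5, with a difference of -0.0014. The 4 above the filter ran from -0.35 to 0.62.

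TRAP, the complex that sits beside the channel and aids some signal sequences, had 4 positive differences of 4 (median 0.18). All 4 lay in the brightest 10% of genes, where 72.6% were positive, against 41.2% of all genes. Ssr3, its gamma subunit, gave 11402.3 and 9759.4 in the controls and 13598.1 and 14115.8 in 13del-tg, with no overlap, a difference of 0.39 (SE 0.17) and a 95% interval of -0.017 to 0.80. A second Ssr3 probe set gave 8019.8 and 9851.5 against 10111.1 and 12524.7, a difference of 0.34. Ssr2 had 0.20 (SE 0.18), also without overlap, whereas Ssr1 and Ssr4, with 0.15 (SE 0.17) and 0.16 (SE 0.20), overlapped and turned slightly negative with quantile normalization (-0.011 and -0.0060). On the shared array all 4 TRAP genes were below the other 4 arrays, and Ssr1 and Ssr4 gave 8276.5 and 7986.8 there against control signals of 11566.5 and 12886.6, and 10856.1 and 12262.4.

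Among the signal peptidase genes, Spcs1, a small accessory subunit, had the largest difference of the members in this fit. It gave 11871.6 and 9403.7 in the controls, 12701.3 and 16843.8 in 13del-tg and 10100.6 on the shared array, which is 0.47 (SE 0.21), 1.38-fold, with a 95% interval of -0.039 to 0.98 and an adjusted p of 0.715 by limma. The groups did not overlap, but control 2 and 13del-tg 2 lay close together. Of its 3 probe sets above the filter the second brightest had 8118.5 and 8064.8 against 8771.4 and 9978.9, a difference of 0.21. The third had a negative difference, of -0.42, but was dim, at 97.1 and 117.3 against 75.2 and 75.9. Its place at the top was not kept under other settings. With the mean of its probe sets, the dim one included, Spcs1 had 0.085, below Cope at 0.44 among others. With quantile normalization it had 0.28, below several members, of which the highest were Tmed2 at 0.53, Sec24b at 0.44 and Sec23a at 0.36. Without 13del-tg 3 it had 0.27, below several members, of which the highest was Sec24b at 0.56. The other accessory subunits differed less, Spcs2 by 0.15 (SE 0.19) and Spcs3 by -0.056 (SE 0.18), and both overlapped between the groups. The small negative Spcs3 value turned to 0.13 with arrays centred on their medians.

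**Figure D3:**
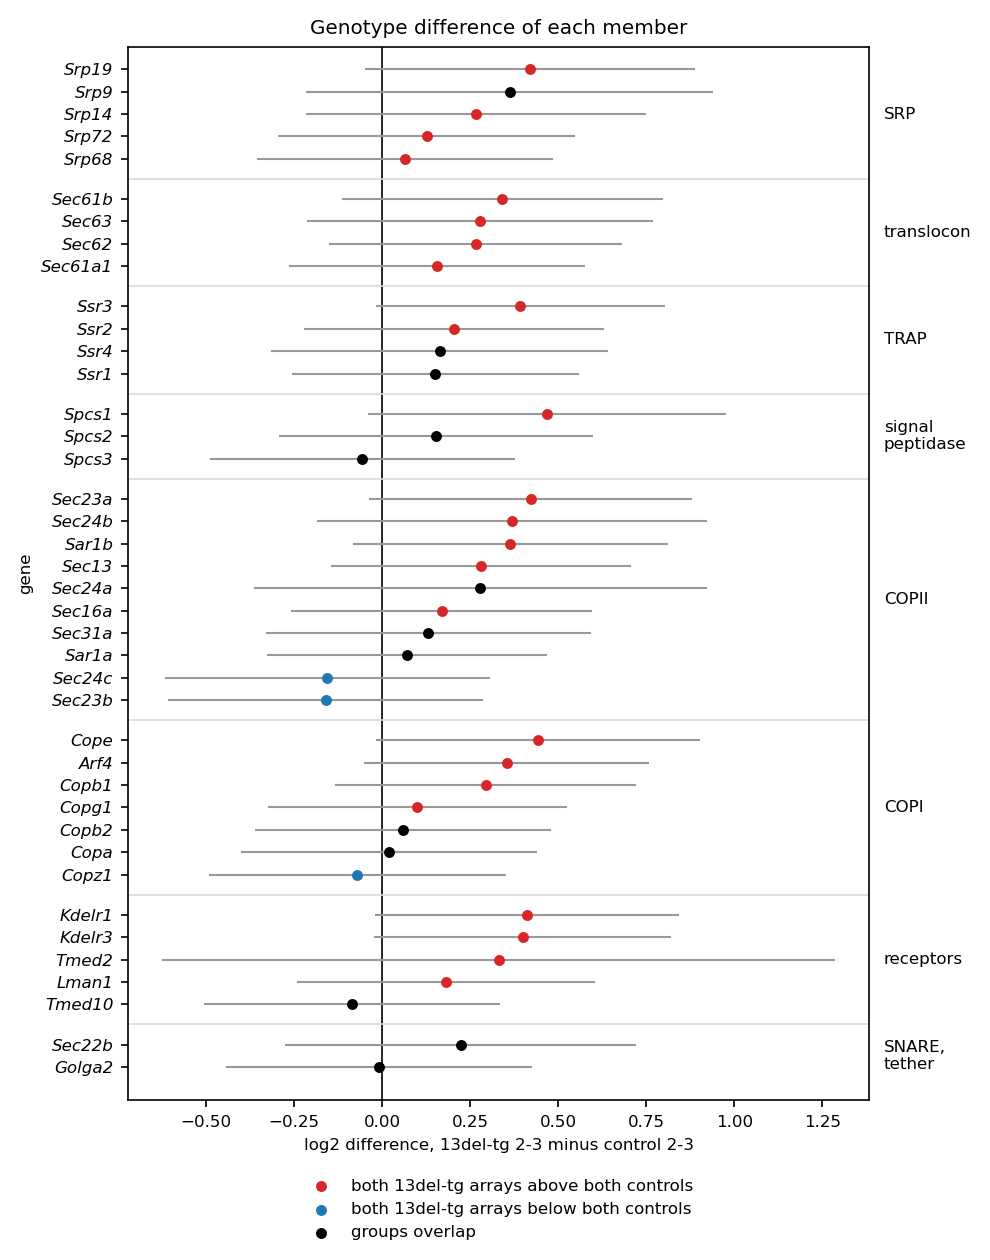
Log2 difference (13del-tg 2 and 3 minus controls 2 and 3, x axis) of each measured member, with 95% intervals from limma, grouped by role (y axis); red, blue and black mark groups apart with 13del-tg above, groups apart with 13del-tg below, and overlap. All 40 intervals include 0. The point estimates run from -0.16 to 0.47, and the 6 negative ones are positive with arrays centred on their medians, which adds 0.18 to every gene.

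COPII is assembled by the small GTPase SAR1, an inner coat of SEC23 and SEC24 and an outer coat of SEC13 and SEC31, on sites marked by SEC16. Of its 10 members 8 had positive differences (median 0.22), 5 had both 13del-tg arrays above both controls and 2 had both below. Over all genes those shares were 41.2%, 13.4% and 26.3%. In the brightest 10%, where 4 of these 10 and 13 of all 24 members of transport lay, they were 72.6%, 32.8% and 10.0%. The paralogs of the inner coat SEC23 had differences of opposite sign. Sec23a gave 2871.5 and 2310.7 in the control pair, 3405.1 and 3509.7 in the 13del-tg pair and 2589.8 on the shared array. Both 13del-tg arrays were above both controls, and the difference was 0.42 (SE 0.19), 1.34-fold, with a 95% interval of -0.036 to 0.88. Sec23b had 2037.3 and 2054.3 in the controls and 1954.9 and 1711.7 in 13del-tg, both lower, with a difference of -0.16 (SE 0.19) that was 0.024 with median centring. Within each array the log2 ratio of Sec23a to Sec23b was 0.49 and 0.17 in the controls, 0.80 and 1.03 in 13del-tg and 0.54 on the shared array. That ratio does not depend on centring. It differed by 0.58 between the groups, with an exact two-sided permutation p of 0.333, the smallest possible here.

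The SAR1 pair showed a smaller gap. Sar1b gave 4658.6 and 3738.2 against 5400 and 5348.3, a difference of 0.36 (SE 0.19), but the shared array had 5566, above both groups. Sar1a had 7927.5 and 8745.5 against 8681.1 and 8812.3, which overlap, and a difference of 0.071 (SE 0.17) that became -0.070 with quantile normalization. The ratio of Sar1b to Sar1a differed by 0.29 between the groups (exact two-sided permutation p = 0.333). Among the cargo-binding SEC24 genes, Sec24b had 538.4 and 553.2 in the controls and 809.5 and 621.5 in 13del-tg (0.37, SE 0.23). Sec24a had 0.28 (SE 0.27) with overlapping groups and a dimmer probe set at -0.39. Sec24c, at 1286.8 and 1418.5 against 1236.9 and 1187, went the other way by -0.16 (SE 0.19), or 0.029 with median centring. In the outer coat, Sec13 gave 3327.7 and 3490.9 in the controls and 3877.4 and 4425.2 in 13del-tg, apart by 0.28 (SE 0.18), whereas Sec31a overlapped (0.13, SE 0.20), with 13del-tg 3 between the controls. Sec16a had 0.17 (SE 0.18), from 2582.9 and 2552.7 in the controls and 3045.2 and 2743.8 in 13del-tg.

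COPI, the coat of the return route, had 6 positive differences of 7, counting the GTPase Arf4, and a median of 0.10. Over all genes 41.2% were positive and the median was -0.074. In the brightest 10%, where 4 of the 7 lay, 72.6% were positive and the median was 0.13. With quantile normalization 4 of the 7 were positive. Cope, the epsilon subunit, gave 5538.6 and 5131.5 in the controls, 6395.7 and 8216.1 in 13del-tg and 4770.4 on the shared array, a difference of 0.44 (SE 0.19) with a 95% interval of -0.018 to 0.90 and the smallest unadjusted limma p of all members (0.0573, adjusted 0.715). Arf4, a GTPase of the early Golgi, had nearly equal controls (11325.6 and 11354.6) below both 13del-tg arrays (13477.6 and 15594.8), a difference of 0.35 (SE 0.17). Copb1, the beta subunit, followed with 2685.5 and 2423.8 against 3175.5 and 3088.4 (0.29, SE 0.18). Copa, Copb2 and Copg1 had 0.020 (SE 0.18), 0.060 (SE 0.18) and 0.10 (SE 0.18), of which the first pair turned negative with quantile normalization (-0.14 and -0.060). Copz1 had -0.070 (SE 0.18), or 0.11 with median centring. The shared array was below the other 4 arrays for all 7 of these genes.

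Of the 5 receptors that sort cargo, 4 had positive differences, with a median of 0.33, which is the value of the dim Tmed2. Over all genes 41.2% were positive, and in the brightest 10%, where 4 of the 5 lay, 72.6%. The KDEL receptors, which catch escaped ER chaperones in the Golgi for return, both had arrays apart. Kdelr1 gave 5425.9 and 4596.2 in the controls, 6334.4 and 6972.6 in 13del-tg and 4702.8 on the shared array, a difference of 0.41 (SE 0.18) with a 95% interval of -0.021 to 0.84. Kdelr3 gave 5508 and 5404, then 6637.2 and 7807.8 and 3696.4, a difference of 0.40 (SE 0.18) with an interval of -0.022 to 0.82. Both had an adjusted p of 0.715 by limma, and the ratio of Kdelr1 to Kdelr3 differed by 0.012 between the groups (exact two-sided permutation p = 1). On the shared array that ratio was 0.35, against -0.022 and -0.23 in the controls, since Kdelr3 was low there. Lman1, the lectin that carries coagulation factors and other glycoproteins forward, had 0.18 (SE 0.18). Its 5 probe sets above the filter ranged from -0.51 to 0.40, the lowest from a dim one (107.4 and 170 against 63.7 and 125.1). The p24 cargo proteins were less clear. Tmed10 had -0.086 (SE 0.18), or 0.098 with median centring, and Tmed2 was measured by a dim probe set at 59.1 and 52.9 and 69.6 and 79.6, where a difference of 0.33 (SE 0.40) came with the largest SE of the members. Both its control signals lay under the filter signal of 61.9, so it passed only through the 13del-tg arrays and the shared array (96.4). A filter at the 60th percentile dropped it and left 33 of 39 members positive, against 44.3% of all genes, with a median of 0.20.

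Sec22b, the SNARE that fuses vesicles between ER and Golgi, had 0.22 (SE 0.21), with 13del-tg 3 at 4978.2 and the other 3 compared arrays between 3591.8 and 3672.4. A further Sec22b probe set had both 13del-tg arrays above both controls (3017.2 and 3072.7 against 2703.1 and 2205). Golga2, which encodes the Golgi tether GM130, overlapped at 1825.2 and 1899.4 against 1881.3 and 1819.6, a difference of -0.0090 (SE 0.18), or 0.17 with median centring, with a 95% interval of -0.44 to 0.43.

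Promoters are shown for the paralog pairs, so that genes of related function can be read side by side, and for Copb1 and Copb2, added after the motif search. The windows are RefSeq sequence of build GRCm38.p6, from 110 bases before the annotated start to 50 bases from it, written 5′ to 3′ along the gene. Capitals mark the 8-base unfolded protein response element TGACGTGG, bound by XBP1 and ATF6, and the 6-base core TGACGT of cyclic AMP response elements, on either strand. The longer motif contains the shorter, and its reverse complement CCACGTCA also contains the CCACG end of the ER stress element. Sec23b had a pair of listed starts, of which the first is shown. Sec23a lay at chr12:59011968-59012127, minus strand; Sec23b at chr2:144556119-144556278, plus strand; Sar1b at chr11:51763553-51763712, plus strand. Sar1a lay at chr10:61680175-61680334, plus strand, Kdelr3 at chr15:79516298-79516457, plus strand and Kdelr1 at chr7:45872730-45872889, plus strand. Copb1 lay at chr7:114254631-114254790, minus strand and Copb2 at chr9:98563621-98563780, plus strand.
Sec23a: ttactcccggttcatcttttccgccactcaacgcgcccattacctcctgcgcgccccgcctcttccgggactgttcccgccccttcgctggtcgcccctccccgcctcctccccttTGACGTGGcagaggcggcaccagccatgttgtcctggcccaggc
Sec23b: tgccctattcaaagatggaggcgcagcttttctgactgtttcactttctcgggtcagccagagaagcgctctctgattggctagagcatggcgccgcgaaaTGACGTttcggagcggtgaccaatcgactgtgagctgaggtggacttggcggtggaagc
Sar1b: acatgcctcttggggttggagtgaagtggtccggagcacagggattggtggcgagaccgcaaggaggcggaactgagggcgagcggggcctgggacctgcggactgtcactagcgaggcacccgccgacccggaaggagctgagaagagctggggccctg
Sar1a: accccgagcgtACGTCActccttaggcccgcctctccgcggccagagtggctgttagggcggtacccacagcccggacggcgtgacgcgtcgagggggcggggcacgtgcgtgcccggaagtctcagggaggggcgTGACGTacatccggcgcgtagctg
Kdelr3: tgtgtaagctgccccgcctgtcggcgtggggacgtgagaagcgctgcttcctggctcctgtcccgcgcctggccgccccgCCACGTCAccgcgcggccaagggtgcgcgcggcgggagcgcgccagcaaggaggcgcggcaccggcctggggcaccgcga
Kdelr1: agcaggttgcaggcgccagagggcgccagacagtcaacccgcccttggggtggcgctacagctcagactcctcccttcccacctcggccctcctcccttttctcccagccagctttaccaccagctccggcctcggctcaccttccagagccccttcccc
Copb1: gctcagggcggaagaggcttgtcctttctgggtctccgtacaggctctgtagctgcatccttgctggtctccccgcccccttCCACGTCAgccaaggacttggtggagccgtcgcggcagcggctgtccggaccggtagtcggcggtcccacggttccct
Copb2: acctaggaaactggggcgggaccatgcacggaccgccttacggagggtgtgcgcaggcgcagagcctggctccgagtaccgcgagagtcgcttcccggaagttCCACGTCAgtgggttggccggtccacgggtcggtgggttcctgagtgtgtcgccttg

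In the full 300-base windows the 8-base element TGACGTGG was found, on either strand, in 4 of the 33 members with a listed promoter, or 12.1%. It was in 1.09% of the 10365 tested genes with a promoter and in 0.676% of all 32851 promoters listed. The 4 were Sec23a, Kdelr3, Copb1 and Copb2, where it began at 6, -30, -28 and -7 bases from the start. Their differences were 0.42, 0.40, 0.29 and 0.060, with a median of 0.35, against 0.21 over all 40 members. Spcs1 and Cope, with the largest differences in this fit, did not have the element. Whether it plays a part in the differences was not tested. Within the pairs, Sec23a had the 8-base element where Sec23b had only the 6-base core, and Kdelr3 had it where Kdelr1 had neither. The 6-base core was in 33.3% of the members with a promoter against 12.7% of tested genes, and those 11 members had a median difference of 0.17. The full ER stress element, CCAAT and CCACG with 9 bases between them, was in 0 of the 33 and in 0.145% of tested genes, and the related ATTGGNCCACG was in 0 and in 0.0772%. The amino acid response motif TGATGNAA was in 1, Kdelr1, and in 2.72%. These are letter matches and say nothing of binding in these bones.

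Beyond the 41 named genes, 83 of 90 further genes of the same route were measured, and by limma 0 passed over all genes in either direction, and at an unadjusted p under 0.05 none was higher and 1 was lower. Their median was 0.15. Of the 83, 59 or 71.1% were positive, against 41.2% of all genes and 72.6% of the brightest 10%, where 31 of the 83 lay. Both 13del-tg arrays were above both controls for 31 or 37.3%, against 13.4% of all genes and 32.8% of the brightest 10%. The oligosaccharyltransferase, which adds sugars to chains as they enter, had 9 of 10 genes in the brightest 10%, 9 of 10 positive, 8 of 10 apart with 13del-tg above (against the same 13.4% and 32.8%) and a median of 0.25. Its Ostc, Krtcap2 and Stt3b genes had 0.36 (SE 0.18), 0.38 (SE 0.19) and 0.29 (SE 0.18). Other entry genes had a median of 0.19 over 20, among them Tram1 at 0.30 (SE 0.17), Emc6 at 0.35 (SE 0.21) and the signal peptidase catalytic subunit Sec11a at 0.28 (SE 0.19). Further COPII and cargo genes had 0.10 over 34 and further COPI and Golgi genes 0.082 over 19. Sec24d, a SEC24 needed for collagen export in the skeleton, gave 4519.8 and 3946.5 in the controls and 5274.5 and 5272.7 in 13del-tg (0.32, SE 0.18), and Mia3, whose product TANGO1 loads collagen into carriers, had 0.10 (SE 0.18). Klhl12, the ubiquitin ligase adaptor of large COPII coats, had -0.58 (SE 0.23), with 598 and 740.6 against 429.7 and 451.7, and was the 1 gene at an unadjusted p under 0.05 (limma adjusted p = 0.715). The Golgi SNARE Gosr1 and the tether Golgb1 had -0.51 (SE 0.25) and -0.46 (SE 0.29). Arcn1, the delta subunit of COPI, had 0.31 (SE 0.18), and the zeta paralog Copz2 0.37 (SE 0.23). Kdelr2, the remaining KDEL receptor, had 0.15 (SE 0.16), or -0.039 with quantile normalization.

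Regulators known to raise these genes had 2 positive and 6 negative differences of 8, or 5 and 3 with arrays centred on their medians. Over all genes 41.2% were positive, or 62.2% with that centring. Both 13del-tg arrays were below both controls for 3 of the 8 and above for 2, against 26.3% and 13.4% of all genes. None of the 8 passed the limma threshold. Xbp1 gave 11514.3 and 9822.2 in the controls, 14049.1 and 14145.7 in 13del-tg and 9986.6 on the shared array, a difference of 0.41 (SE 0.17) with a limma adjusted p of 0.715. The arrays do not separate its spliced form. Atf6 had -0.43 (SE 0.21) and Mbtps2, which cleaves ATF6, -0.23 (SE 0.20), both lower on both 13del-tg arrays. Creb3l1, the OASIS factor of osteoblasts, and Creb3l2 had -0.0024 (SE 0.22) and -0.078 (SE 0.18), which became 0.18 and 0.11 with that centring. Chaperones and degradation factors of the ER had 21 of 23 positive, a median of 0.29 and 16 of 23 with both 13del-tg arrays above both controls, against 13.4% of all genes and 32.8% of the brightest 10%, where 10 of them lay. Their larger differences were those of Creld2 at 0.75 (SE 0.24), Hspa5 at 0.63 (SE 0.22), Dnajb9 at 0.63 (SE 0.21) and Hsp90b1 at 0.56 (SE 0.19). None passed the threshold, and 4 of the 23 had an unadjusted limma p under 0.05, against 6.80% of all genes. With quantile normalization the chaperone list had a median of 0.27 and the members 0.13. The difference between the 2 sets of genes was not tested.

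The shared array had low signals for most members, as it had for bright genes in general. It was below all 4 compared arrays for 24 of the 40 members and for 24.3% of all genes and 53.5% of the brightest 10%. By role it was lowest for 7 of 7 COPI, 4 of 4 TRAP and 0 of 5 SRP genes. Its median against the control mean was -0.20 over the members and -0.20 over the brightest 10% of genes. For the members, controls 2 and 3 had 0.013 and -0.013 and 13del-tg 2 and 3 had 0.18 and 0.27. The groups of medians did not overlap, and the shared array lay outside both. It was above all 4 compared arrays for 4 members, Srp68, Sar1b, Sec24c and Tmed2. All 6 measured osteoblast markers were lowest on this array too. Their summed signal was 81268 there, 114454 and 126575 in the control arrays, and 130115 and 142761 in the 13del-tg arrays, with 4 of 6 differences positive (3 of 6 with quantile normalization) and a median of 0.15. Arrays thus stood in the same order of groups by osteoblast markers as by the members. The brightest 10% of genes, where 5 of the 6 markers lay, also had that order. Most of the summed signal came from Col1a1 and Col1a2, while Sp7 (-0.22) and Alpl (-0.096) had negative differences. The part that osteoblast markers play in the members' differences was not tested. In bulk tissue, fewer cells of a type and less RNA per cell cannot be told apart.

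**Figure D4:**
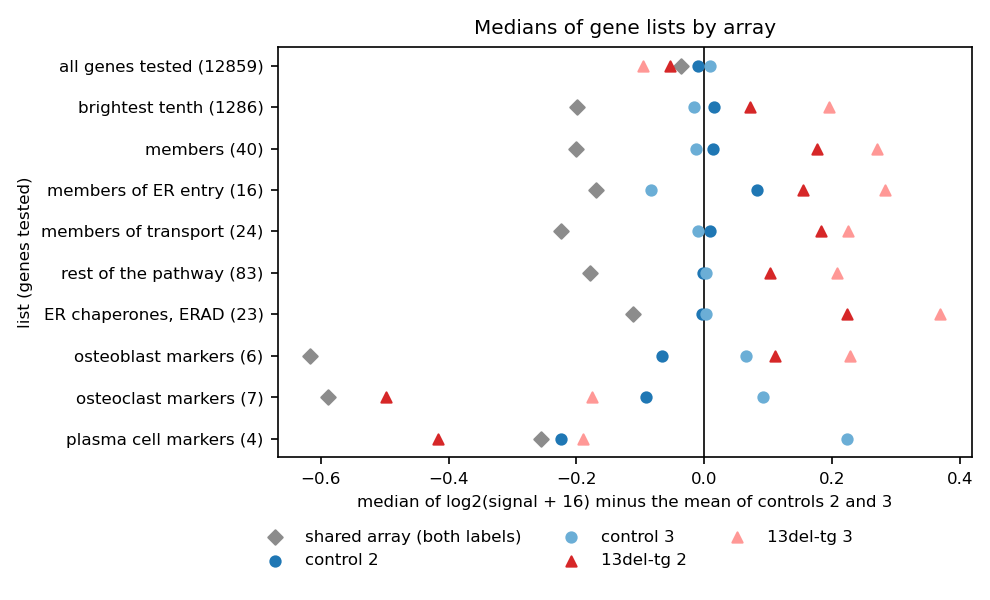
Median of log2(signal + 16) minus the mean of controls 2 and 3 (x axis) for gene lists (y axis, with the number of genes tested) on each of 5 arrays. For the members both 13del-tg arrays (0.18 and 0.27) lie to the right of the controls and the shared array (-0.20) to the left, an order that the brightest 10% of genes, at 0.072, 0.19 and -0.20, also has.

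Every other marker list had a negative median except skeletal muscle, though those of osteocytes, macrophages, adipocytes and brain glia were positive with median centring. The median of all genes was negative too (-0.074), with 41.2% of differences positive, or 62.2% with that centring. Of all genes 26.3% had both 13del-tg arrays below both controls. Plasma cells, the marrow cells with the heaviest load of secretion, had 4 markers measured, all 4 with negative differences, 2 of which were positive with median centring. Their summed signal was 3478 and 5636 in the controls and 2107 and 3634 in 13del-tg. Most of it came from Ighm and Sdc1, so the sum is a weak measure of these cells. Jchain was dim (72.4 and 103.3 against 75.6 and 81.4), with a difference of -0.12, and Tnfrsf17 was below the filter. Osteoclast markers, 7 of 7 measured and all negative (1 positive with median centring), summed to 73901 and 85492 in the controls and 62571 and 76464 in 13del-tg. Erythroid markers, 3 of 7 measured and all negative, summed to 10155 and 12397 in the controls and 2828 and 3604 in 13del-tg, and B cell markers, 5 of 6 measured and all negative, to 6026 and 7535 in the controls and 1043 and 3658 in 13del-tg. Skeletal muscle markers, 5 of 5 measured and 4 of them positive, summed to 97250 and 17060 in the controls and 132554 and 104995 in 13del-tg, with control 3 the low array. No marker of these 5 cell types passed the limma threshold. Of pineal and photoreceptor markers 9 of 10 were measured, all negative, and 4 passed, with a summed signal of 5082 and 10324 in the controls and 426 and 491 in 13del-tg and 627 on the shared array. Their part in the members' differences was not tested.

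Other probe sets of the members gave a less even picture than the brightest ones. Of 21 members with several probe sets above the filter, 11 had 1 sign throughout and 10 had mixed signs, and 59 of all 80 probe sets of members above the filter had a positive difference. Mixed signs were found in Copa, Lman1, Sec24a, Sec61a1, Sec62, Sec63, Spcs1, Srp72, Ssr1 and Ssr4. Srp14 had 4 of 4 positive, from 0.27 to 0.48, and Arf4 3 of 3, from 0.14 to 0.49. For 6 members the brightest probe set is of a kind that may share sequence with other transcripts by the array's naming, those of Lman1, Sec16a, Sec62 and Ssr4 (suffix _s_at) and of Srp14 and Ssr3 (suffix _x_at). Taking the mean over each gene's probe sets above the filter, the members' median was 0.18, with 30 of 40 positive.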

How the data were processed

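The authors deposited 1 intensity per probe set and sample on a linear scale. MAS5 is the tool listed in the submitters' processing notes, without a version. After trimming 2% at each end the mean was 500.003 on each array. Intensities were taken as log2(signal + 16) without further normalization. Of 45037 probe sets other than controls, 34945 had 1 symbol, 932 several and 9160 were unnamed here. Probe sets at or above the 40th percentile of the mean over the 5 distinct arrays (a signal of 61.9) were kept, 27022 in all, and the brightest stood for its gene, which gave 12859 genes. Controls 2 and 3 were compared with 13del-tg 2 and 3 in limma 3.58.1 (R 4.3.3; lmFit, eBayes with trend, two-sided). P-values were adjusted by Benjamini-Hochberg across the 12859 genes. The fit had 2 residual and 5.01 prior degrees of freedom. No detection calls or batches were used. The code was tested on simulated data. The labels do not say whether replicates were separate litters, so p-values measure the spread between these arrays. The members, lists, motifs and tests were chosen with earlier results of these data known. Named were all members, up to 3 genes of smallest unadjusted p from each further list, 8 genes chosen by name (Hspa5, Xbp1, Creb3l1, Creb3l2, Sec24d, Mia3, Kdelr2 and Col10a1) and paralog pairs for sequences. Counts of members apart or positive, and the reading against the brightest 10%, were added after the data were seen. Cell type markers were summed over genes that passed the filter.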

Additional observations from a re-analysis of the deposited data

Results flagged for a closer look

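The shared array lies outside the comparison and was lower than the other arrays for most members. For 4 members it gave a signal above both controls and both 13del-tg arrays: Srp68 at 2925.6 (controls 2485 and 2462.2), Sar1b at 5566 (controls 4658.6 and 3738.2), Sec24c at 1460.1 (controls 1286.8 and 1418.5) and the dim Tmed2 at 96.4 (controls 59.1 and 52.9). Over all genes 3295 of 12859 had this array on top.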

How the results depend on the processing

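For the members, 0 passed the limma threshold under any of 17 alternatives, where the lowest adjusted p of any member was 0.184 (Spcs1, with the replicate numbers as a block). Their median difference was positive under all 17. It was 0.40 with arrays centred on the median, 0.13 with quantile normalization, 0.27 with the shared array as a control, 0.098 with it as 13del-tg and 0.14 with it under both labels. Leaving out 1 array gave medians from 0.17 to 0.27, and 32 to 35 positive members. With 1 array against 2, groups separate more easily by construction, and 27 to 30 members were apart with 13del-tg above and 4 to 6 with it below, against 24.96% to 28.85% and 38.7% to 44.9% of all genes and, above, 45.5% to 58.6% of the brightest 10%. The 24 members apart became 4 with the shared array as 13del-tg and 0 with it under both labels, where the groups share an array by construction. The share of all genes apart under these labels is not given here.

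Counts of all genes higher and lower, 2 and 6 in the reported fit, were 1 and 1 with a pseudocount of 1, 1 and 2 with 64, 1 and 0 without a filter, 1 and 1 with a filter at the 60th percentile, 3 and 27 with median centring and 1 and 1 with quantile normalization. They were 1 and 0 without the trend, 2 and 23 with robust eBayes, 1 and 0 and 0 and 7 with the shared array as control or as 13del-tg, and 0 and 0 with it under both labels (192 at an unadjusted p under 0.05). Leaving out 1 array gave 1 to 182 higher and 0 to 50 lower, the highest without control 2, and leaves 1 array in a group, assumed to vary like the others. With the replicate block the counts were 271 and 338. The labels do not say that the numbers pair the samples, and differences between replicates 2 and 3 correlated at 0.27 over genes between the genotypes, so the block is only reported.

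Leaving out 1 array moved 18 member differences by over 1.5 times without 13del-tg 2, 23 without 13del-tg 3, 14 without control 2 and 20 without control 3. The ranges were 0.040 to 0.68 for Srp9, 0.047 to 0.49 for Srp14, 0.25 to 0.59 for Srp19, 0.15 to 0.53 for Sec61b, 0.27 to 0.67 for Spcs1, 0.27 to 0.58 for Sec23a and 0.26 to 0.62 for Cope. Of 679 recomputed member differences, 40 turned sign, over 18 members, and 22 members kept 1 sign throughout. With median centring, which added 0.18 to every gene, the signs of these members turned: Spcs3 0.13, Sec23b 0.024, Sec24c 0.029, Copz1 0.11, Tmed10 0.098 and Golga2 0.17. Quantile normalization gave turned signs for Ssr1 -0.011, Ssr4 -0.0060, Sar1a -0.070, Copa -0.14 and Copb2 -0.060. The mean of probe sets gave turned signs for Sec61a1 -0.059, Ssr4 -0.12, Sec24a -0.057 and Copa -0.40. The Copa value rested on a dim second probe set (221.1 and 373.1 against 207.5 and 116.3), with -0.82. With the shared array as a control the signs of these members turned: Srp68 -0.015, Spcs3 0.059, Copz1 0.015 and Golga2 0.12. Counting it as 13del-tg gave turned signs for Sec61a1 -0.11, Ssr1 -0.086, Ssr2 -0.016, Ssr4 -0.068, Sar1a -0.061, Sec31a -0.092, Copa -0.082, Copb2 -0.093 and Copg1 -0.042. Leaving out 1 array turned Copa (-0.11 to 0.15), Copb2 (-0.032 to 0.15), Spcs3 (-0.15 to 0.038), Sec24a (-0.053 to 0.61), Golga2 (-0.038 to 0.019), Sec31a (-0.044 to 0.31), Ssr4 (-0.044 to 0.37) and Sec22b (-0.0063 to 0.45), over the range given. Dim signal limits Tmed2.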
